A study of Mus musculus with 10 samples.

Results

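The 67 genes described here encode collagens, laminins, other structural glycoproteins of the extracellular matrix and the enzymes that cross-link or cut it. They were chosen by name from the deposited expression table: Fn1, Hspg2, Mfap4, Sparc and Postn, and every symbol of the collagen chain, laminin, nidogen, fibulin, fibrillin 1 and 2, thrombospondin, lysyl oxidase, Mmp, Timp and Adamts families, provided their FPKM averaged 1 or more across all 6 libraries. FPKM counts sequenced fragments scaled by transcript length and by the mapped fragments of the library, so levels can be compared between genes. The rule matched 68 of the 11228 genes listed, and 67 of them are among the 10993 genes that reached this average. Col28a1, at a mean of 0.742 FPKM, was the matching gene below it, and Fbln1, at 1.39 FPKM, lay nearest above it. In 3 of the 67 genes 1 group had a mean below 1 FPKM (Col23a1 in GAP-scr, Lama4 in GAP-2/3 and Adamts16 in GAP-2), so they entered through the other groups, and their differences depend in part on that filter.

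The extracellular matrix of muscle consists of a basement membrane that wraps each fibre and of fibrous interstitial matrix between the fibres. Type IV collagen and laminins form the networks of the basement membrane, which nidogens and the heparan sulphate proteoglycan perlecan link, and type I, III and V collagens form the fibrils of the interstitial matrix. Lysyl oxidases cross-link collagen and elastin, matrix metalloproteinases (Mmp) and the Adamts proteases cut matrix proteins or their precursors, and the Timp proteins inhibit these proteases. Cultured myoblasts and myotubes make matrix of both kinds.

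The libraries came from mouse myotubes differentiated in vitro for 2 days, in 3 groups of 2. GAP-scr cells received a scrambled control gapmer, an antisense oligonucleotide that directs RNase H to a transcript, and the GAP-2 and GAP-2/3 cells received 1 of 2 gapmer sets against Charme, a muscle lncRNA. Polyadenylated RNA was sequenced from each. The mouse strain, the cell line, if any, and whether the GAP-2/3 set contains the GAP-2 gapmer are not given in the sources used here, and no genetic change is stated for any group. Although the 2 libraries per group are described as biological replicates, no source used here states that they came from separate cultures; p-values therefore reflect library-to-library spread, part of which may be technical. Charme itself is not analysed here, so the groups rest on their labels.

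All 10 myotube markers on the fixed list were in the table, among them skeletal α-actin and myogenin. Their summed level was 10210 and 10640 FPKM in GAP-scr, 5787 and 5914 in GAP-2 and 6270 and 6633 in GAP-2/3 (replicates A and B, the order used throughout). Skeletal α-actin alone stood at 5636 and 6323, 2974 and 2834, and 2928 and 3215 FPKM. By the test given below 8 of the 10 fell with GAP-2 and 7 with GAP-2/3, beside 4.18% and 11.3% of all genes. Myogenin, Myh3 and Tnnt3 did not pass with GAP-2/3 (-0.11 ± 0.12, -0.28 ± 0.12 and -0.27 ± 0.12). None of 10 endothelial markers was listed, 1 of 10 macrophage markers (Cd68, 0.374 to 3.54 FPKM, highest in GAP-2), 1 of 7 adipocyte markers (Pparg), 2 of 5 Schwann cell markers, 3 of 7 of cartilage and bone, 6 of 8 of smooth muscle and pericytes and 6 of 8 of myoblasts. Of 10 fibroblast markers outside the 67 genes, 5 were listed (Dcn, Pi16, Ly6a, Pdgfra and Osr1) and Thy1, Dpt, Lum, Tcf21 and Fap were not. Their summed level was 77.1 and 63.5 FPKM in GAP-scr, 146 and 153 in GAP-2 and 183 and 187 in GAP-2/3. The smooth muscle sum, mostly Acta2, was 2198 and 2452 in GAP-scr and 1442 to 1659 in the gapmer libraries. The myoblast sum was 164 to 179 over all 6, but over both treatments Myf5, Vcam1 and Cd34 rose and Cdh15 and Fgfr4 fell: Myf5 stood at 14.8 and 11.6 FPKM in GAP-scr, 23.4 and 25.0 in GAP-2 and 31.6 and 28.0 in GAP-2/3. Of cartilage and bone markers, Sp7 stood at 3.59 and 3.85 FPKM in GAP-scr, 11.3 in both GAP-2 libraries and 7.24 and 9.05 in GAP-2/3. The Schwann cell marker Erbb3 stood at 25.6 and 25.3, 15.2 and 15.8, and 14.2 and 17.9 FPKM. By the same test Sp7 rose and Erbb3 fell in both treatments, while Sox9 and Runx2 passed in no comparison. The myotube, fibroblast and smooth muscle sums, these single myoblast markers, Sp7 and Erbb3 moved with the treatments. Their part in the results below was not tested. In such bulk RNA, fewer cells of a type and less RNA per cell cannot be told apart.

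Rn45s, the ribosomal RNA precursor, stood at 3387 FPKM in GAP-scr A and 4090 in GAP-2 A, and at 93.2 to 176 in the other 4 libraries. The GAP-2/3 libraries differed from each other in the matrix genes: 58 of the 67 were higher in replicate B, with a median difference of 0.18 in log2(FPKM + 1), against 0.03 over all tested genes. In GAP-2 19 of 67 were higher in replicate B (median -0.07), and in GAP-scr 38 of 67 (median 0.02). Libraries were left out 1 at a time, and calls of the 67 genes that then did not pass are named beside the results. Calls of marker genes and of matrix genes outside the 67 were not checked in this way.

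Sparc, a collagen-binding glycoprotein, had the highest mean, 1134 FPKM, rank 85 of the 10993 genes. Fibronectin (Fn1) followed at 1006 (rank 99), then Col1a2 at 703 and Col1a1 at 641. Of the 67 genes 4 had a mean of at least 500 FPKM, 17 lay between 50 and 500, 30 between 5 and 50 and 16 below 5. Together they made up 1.36% and 1.35% of the summed FPKM in GAP-scr, 1.24% and 1.13% in GAP-2 and 0.943% and 1.10% in GAP-2/3, so the GAP-scr libraries were the highest and GAP-2/3 A the lowest.

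Each treatment was compared with GAP-scr, and the treatments with each other, by limma on log2(FPKM + 1), fitted to all 10993 genes with p-values adjusted by Benjamini-Hochberg over all of them. A gene is said to rise, fall or change where its adjusted p was under 0.05, and changes are given as log2 differences ± SE on that scale, where the added 1 shrinks the changes of genes of low level. With both treatments averaged, 35 of the 67 genes (52.2%) changed against GAP-scr, where 34.1% of all genes did. The words over both treatments refer to this average throughout, in which a gene can pass without passing in each treatment. Of the 67, 25 fell (37.3%, background 9.57%) and 10 rose (14.9%, background 24.5%). Col23a1, which entered through the gapmer libraries, is among the genes counted as rising here and in each treatment. The median change of the 67 was -0.16, beside 0.10 for all genes tested. With GAP-2 alone 25 changed (37.3%, background 14.6%): 14 fell (20.9%, background 4.18%) and 11 rose (16.4%, background 10.4%), with a median of -0.12 beside 0.07. With GAP-2/3 alone 39 changed (58.2%, background 39.3%): 28 fell (41.8%, background 11.3%) and 11 rose (16.4%, background 28.0%), with a median of -0.28 beside 0.13.

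The treatments share their GAP-scr libraries, so the difference between them was tested directly. Between GAP-2/3 and GAP-2, 28 of the 67 genes differed (41.8%, background 10.1%). In GAP-2/3 19 were lower (28.4%, background 3.65%) and 9 higher (13.4%, background 6.50%), with a median of -0.14 beside 0.05. Lama4 is counted among the lower and Adamts16 among the higher, and each had a group mean below 1 FPKM. Leaving out libraries weakened these calls most: 5 were called without GAP-2 A, 15 without GAP-2 B, 3 without GAP-2/3 A and 6 without GAP-2/3 B. The share called over all genes fell as well, from 10.1% to 3.19%, 4.85%, 1.77% and 2.21%. For GAP-2 against GAP-scr 13 were called without GAP-2 A and 13 without GAP-2 B, and for GAP-2/3 25 without GAP-2/3 A; over all genes the shares were 5.39%, 4.58% and 14.0%. After scaling every library to one median, 8 rose and 16 fell with GAP-2, and 4 were higher and 19 lower in GAP-2/3 than in GAP-2. Under quantile normalization, the other scaling tried, these counts were 9 and 17, and 5 and 20. Of the 67 genes 18 passed in none of the 4 comparisons, a count that was not made over all genes. These included the abundant Sparc, Col3a1, Lox, Col5a2, Timp2, Postn and Mmp2.

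**Figure D1:**
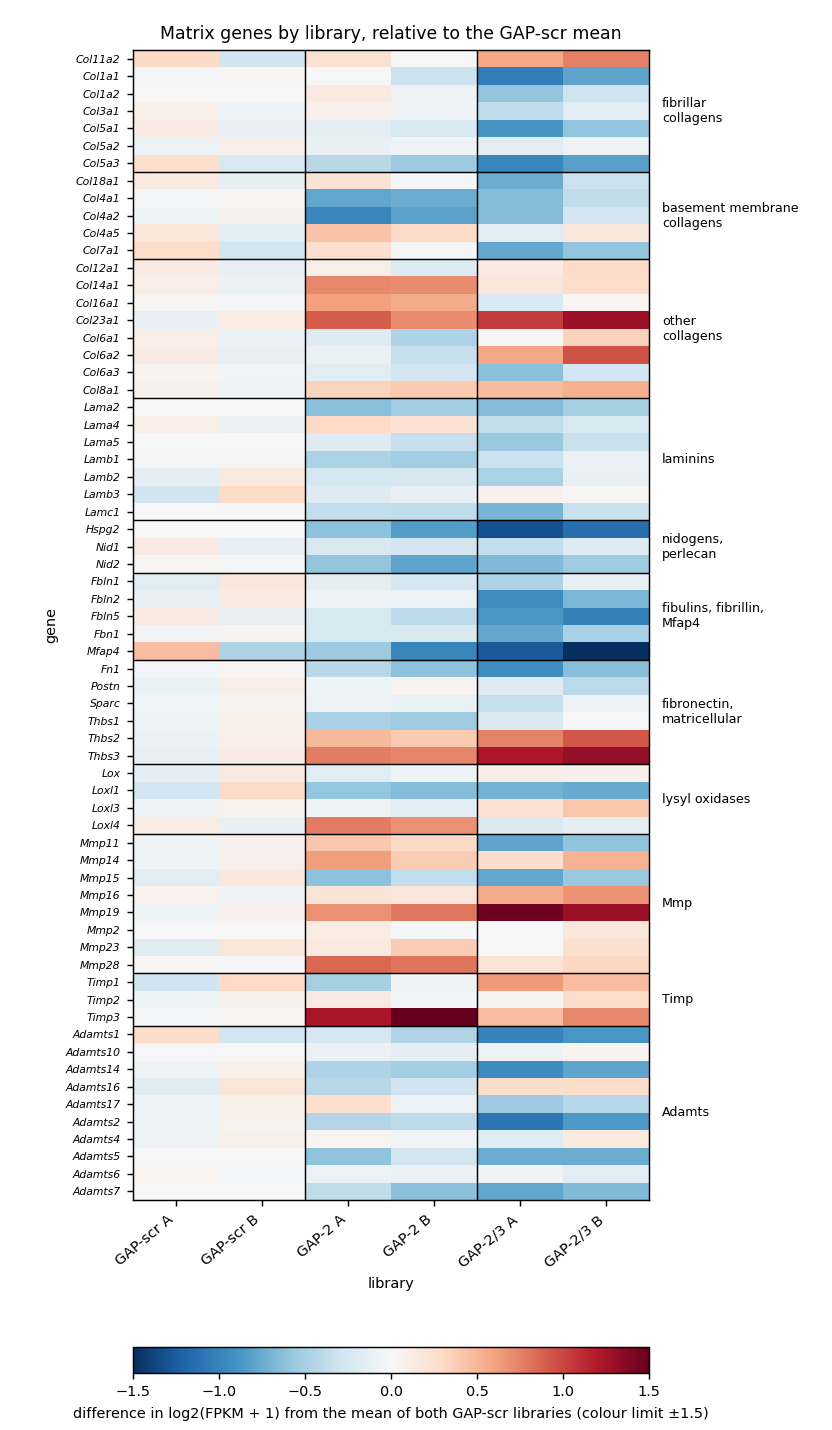
Each row is 1 gene, grouped by role (66 of the 67 are drawn), and each column 1 library; colour gives the difference in log2(FPKM + 1) from the mean of both GAP-scr libraries (blue lower, red higher). Hspg2, Nid2, Lama2, Col4a1 and Col4a2 are blue in all 4 gapmer libraries, Col1a1, Fbln2 and Adamts1 are bluest in GAP-2/3, and Timp3, Thbs3 and Mmp19 are red in all 4.

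No gene of the basement membrane collagens, laminins, nidogens and perlecan rose in either treatment, and Hspg2, Nid2, Lama2, Col4a1 and Col4a2 fell in both. Of all genes 10.4% rose and 4.18% fell with GAP-2, and 28.0% and 11.3% with GAP-2/3. Perlecan, Hspg2, had the second lowest change of all 67 genes over both treatments, after Mfap4. It stood at 86.4 and 87.3 FPKM in GAP-scr, 56.6 and 48.2 in GAP-2 and 34.3 and 39.0 in GAP-2/3. The 3 groups did not overlap, and the level was lowest in GAP-2/3. The change was -0.72 ± 0.12 with GAP-2 (adjusted p = 0.00261) and -1.23 ± 0.12 with GAP-2/3 (adjusted p = 2.71e-05), and GAP-2/3 was lower than GAP-2 by 0.50 ± 0.12 (adjusted p = 0.0203). That last difference did not pass without GAP-2 A (-0.39), GAP-2/3 A (-0.41) or GAP-2/3 B (-0.59). Nidogen 2, Nid2, which bridges laminin and type IV collagen, stood at 41.9 and 40.1 FPKM in GAP-scr, 26.8 and 23.2 in GAP-2 and 25.4 and 28.1 in GAP-2/3. All 4 gapmer libraries lay below both controls, and the changes were -0.70 ± 0.12 and -0.60 ± 0.12. Nidogen 1, Nid1, was at -0.27 ± 0.10 over both treatments, which did not pass (adjusted p = 0.0635).

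Col4a1 and Col4a2 encode the chains of the ubiquitous type IV collagen trimer. Col4a1 stood at 26.8 and 27.4 FPKM in GAP-scr, 15.3 and 15.8 in GAP-2 and 16.9 and 20.6 in GAP-2/3. Col4a2 stood at 30.0 and 32.7 FPKM in GAP-scr, 15.5 and 17.5 in GAP-2 and 19.7 and 25.4 in GAP-2/3. For both genes the GAP-2 libraries were the lowest, the GAP-2/3 libraries lay between them and the controls, and no group overlapped another. Col4a1 fell by 0.76 ± 0.12 with GAP-2 (adjusted p = 0.00233) and by 0.52 ± 0.12 with GAP-2/3, and Col4a2 by 0.89 ± 0.13 (adjusted p = 0.00186) and 0.47 ± 0.13. The treatments did not differ beyond the threshold (adjusted p = 0.227 and 0.0714). Without GAP-2/3 A the GAP-2/3 changes, -0.38 and -0.29, did not pass, and neither did that of Col4a2 without GAP-scr B (-0.41). The ratio of Col4a2 to Col4a1 ran only from 1.01 to 1.23 over the 6 libraries. In RefSeq these genes lie head to head on opposite strands of chromosome 8, with 78 bases common to their 300-base promoter windows.

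Of the other basement membrane collagens, Col18a1, whose C-terminal fragment is endostatin, was the most abundant. Its level was 433 and 358 FPKM in GAP-scr, 453 and 388 in GAP-2 and 236 and 315 in GAP-2/3. Both GAP-2/3 libraries lay below the other 4, which overlapped. It fell by 0.53 ± 0.15 with GAP-2/3 and was at 0.09 ± 0.15 with GAP-2, and the treatments differed by -0.62 ± 0.15 (adjusted p = 0.025). The fall did not pass without GAP-2/3 A (-0.32) or GAP-scr A (-0.39), nor the difference without GAP-2 A (-0.51), GAP-2/3 A (-0.41) or GAP-2/3 B (-0.83). Col7a1, the anchoring fibril collagen, was weakly expressed at 3.83 and 2.27 FPKM in GAP-scr, 3.72 and 2.93 in GAP-2 and 1.33 and 1.63 in GAP-2/3. It was lowest in GAP-2/3, by 0.68 ± 0.18 against GAP-scr and 0.80 ± 0.18 against GAP-2. The first did not pass without GAP-scr A (-0.40), GAP-2/3 A (-0.59) or GAP-2/3 B (-0.77), the second without GAP-2 A (-0.67) or either GAP-2/3 library (-0.71 and -0.89). Col4a5, a chain of another type IV trimer, passed in no comparison; its log2 differences were 0.35 ± 0.14 with GAP-2 and 0.00 ± 0.14 with GAP-2/3.

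Laminins are trimers of an α, a β and a γ chain. Over both treatments 4 of the 8 chains, Lama2, Lama5, Lamb1 and Lamc1, fell and none rose, beside 9.57% and 24.5% of all genes. Lama2, the α chain of the laminin of mature muscle fibres, stood at 20.5 and 20.3 FPKM in GAP-scr, 12.8 and 14.0 in GAP-2 and 12.7 and 14.1 in GAP-2/3. The gapmer libraries all lay below the controls, and the changes were -0.57 ± 0.11 and -0.57 ± 0.11, with a difference between treatments whose SE was 0.11 and adjusted p 0.991. Its fall with GAP-2 did not pass without GAP-2 A (-0.51). Lamb1, the most abundant chain, stood at 51.7 and 53.1 FPKM in GAP-scr, 37.5 and 36.2 in GAP-2 and 41.8 and 48.9 in GAP-2/3. It was lowest in GAP-2 (-0.50 ± 0.11), with GAP-2/3 between (-0.21 ± 0.11, adjusted p = 0.157). Without GAP-2 A (-0.52) or GAP-2 B (-0.47) the first did not pass. Lamc1, the γ chain shared by most laminins, stood at 33.1 and 32.9 FPKM in GAP-scr, 25.3 and 25.0 in GAP-2 and 20.0 and 26.1 in GAP-2/3. Every gapmer library was below both controls, though the treatments overlapped, and the fall with GAP-2/3, 0.51 ± 0.13, did not pass without GAP-2/3 A (-0.33). With GAP-2 alone Lamc1 did not pass (-0.38 ± 0.13, adjusted p = 0.0688).

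Lama5 fell by 0.36 ± 0.10 over both treatments and by 0.44 ± 0.12 with GAP-2/3. The latter did not pass without GAP-2/3 A (-0.34), and the former without GAP-scr B (-0.34), GAP-2 B (-0.32) or GAP-2/3 A (-0.30). With GAP-2 alone Lama5 did not pass (-0.27 ± 0.12). Lamb1, at -0.35 ± 0.10 over both, did not pass without GAP-2 B (-0.34) or GAP-2/3 A (-0.30). Lama4, an α chain of vessel and nerve basement membranes, with a GAP-2/3 mean below 1 FPKM, was weakly expressed at 1.58 and 1.26 FPKM in GAP-scr, 1.98 and 1.82 in GAP-2 and 0.872 and 1.05 in GAP-2/3. It differed between the treatments (-0.56 ± 0.13, adjusted p = 0.0188) and from GAP-scr in neither, and the difference did not pass when any 1 of the 4 gapmer libraries was left out (-0.52, -0.60, -0.50 and -0.63). Lamb2 and Lamb3 passed in no comparison.

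**Figure D2:**
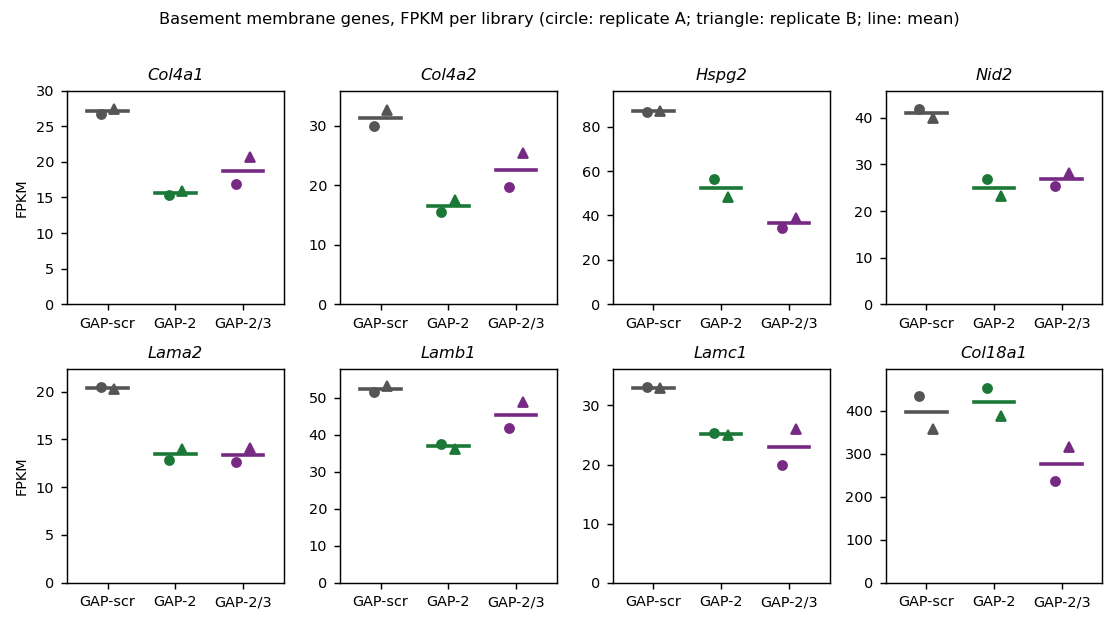
FPKM of 8 basement membrane genes in each library (circles replicate A, triangles replicate B, lines the mean of 2; each axis starts at 0). For Col4a1 and Col4a2 GAP-2 is lowest, at 15.3 to 17.5 FPKM, for Hspg2 GAP-2/3 is lowest, at 34.3 and 39.0, and for Col18a1 the GAP-2/3 libraries, at 236 and 315, lie below the other 4.

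Among the 7 fibrillar collagens, which assemble into banded fibrils, 4 fell with GAP-2/3 and 1 rose, and none passed with GAP-2. Of all genes 11.3% fell and 28.0% rose with GAP-2/3, and 14.6% passed with GAP-2. Col1a1 stood at 778 and 808 FPKM in GAP-scr, 789 and 632 in GAP-2 and 385 and 456 in GAP-2/3. Col1a2, its partner in the type I trimer and the most abundant collagen, stood at 767 and 767 FPKM in GAP-scr, 842 and 719 in GAP-2 and 508 and 616 in GAP-2/3. For both genes the GAP-2/3 libraries lay below the other 4. For Col1a1 GAP-2 A lay between the controls and GAP-2 B, at 632 FPKM, below them. For Col1a2 GAP-2 A lay above the controls and GAP-2 B below. Col1a1 fell by 0.92 ± 0.13 with GAP-2/3 (adjusted p = 0.000495) and Col1a2 by 0.46 ± 0.13 (adjusted p = 0.0153), against -0.17 ± 0.13 and 0.02 ± 0.13 with GAP-2. Between the treatments the differences were -0.75 ± 0.13 (adjusted p = 0.00468) and -0.48 ± 0.13 (adjusted p = 0.0351).

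The ratio of Col1a1 to Col1a2 was 1.01 and 1.05 in GAP-scr, 0.938 and 0.880 in GAP-2 and 0.759 and 0.741 in GAP-2/3, so the groups did not overlap; this ratio was not tested. The fall of Col1a2 with GAP-2/3 did not pass without GAP-2/3 A (-0.32), while that of Col1a1 passed in each fit with 1 library left out. The difference between treatments did not pass for Col1a1 without GAP-2 A (-0.59) or GAP-2/3 A (-0.63), and for Col1a2 when any gapmer library was left out (-0.61 to -0.34).

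Type V collagen sets the diameter of type I fibrils. Col5a1 stood at 156 and 131 FPKM in GAP-scr, 129.8 and 121 in GAP-2 and 76.7 and 94.6 in GAP-2/3. The 3 groups did not overlap, with GAP-2/3 lowest, and it fell by 0.74 ± 0.13 there (adjusted p = 0.0015). Its difference between treatments, -0.55 ± 0.13, did not pass when any gapmer library was left out (-0.70 to -0.40). Col5a3, at 45.7 and 32.6 FPKM in GAP-scr, 28.8 and 26.3 in GAP-2 and 19.1 and 21.5 in GAP-2/3, likewise had its lowest values in GAP-2/3 and no overlap between groups. It fell by 0.90 ± 0.15, and with GAP-2 its -0.48 ± 0.15 did not pass (adjusted p = 0.053). Col5a2, by contrast, lay between 154 and 185 FPKM in all libraries and differed by -0.10 ± 0.09 over both treatments, which did not pass (adjusted p = 0.406). Col3a1, next to Col5a2 on chromosome 1, lay between 284 and 394 FPKM and did not pass with GAP-2/3 (-0.28 ± 0.12, adjusted p = 0.0817). Col11a2, a minor fibril collagen best known from cartilage, was the 1 that rose with GAP-2/3, from low levels of 1.69 and 0.780 FPKM in GAP-scr, 1.57 and 1.19 in GAP-2 and 2.26 and 2.71 in GAP-2/3. That rise, 0.67 ± 0.18, did not pass without GAP-scr B (0.37), GAP-2/3 A (0.76) or GAP-2/3 B (0.58), or under quantile normalization.

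The fibulins, fibrillin 1 and Mfap4 belong to microfibrils and elastic fibres. With GAP-2/3 4 of these 5 genes fell (11.3% of all genes), and with GAP-2 none passed (14.6% of all genes). Mfap4, a microfibril-associated glycoprotein, had the lowest change of the 67 over both treatments (-1.07 ± 0.21), but its controls were far apart, at 71.0 and 37.0 FPKM in GAP-scr, 35.0 and 25.6 in GAP-2 and 20.9 and 17.4 in GAP-2/3. The lower control, 37.0 FPKM, lay close to GAP-2 A, and both GAP-2/3 libraries lay below all others (-1.38 ± 0.24, adjusted p = 0.00143). Fibulin 5, Fbln5, which binds tropoelastin, stood at 7.39 and 6.13 FPKM in GAP-scr, 5.52 and 4.85 in GAP-2 and 3.22 and 2.82 in GAP-2/3. No groups overlapped, and it fell by 0.95 ± 0.13 with GAP-2/3 (adjusted p = 0.000428), 0.62 ± 0.13 below GAP-2. Fibulin 2, Fbln2, stood at 52.6 and 62.4 FPKM in GAP-scr, 55.1 and 53.7 in GAP-2 and 29.6 and 35.2 in GAP-2/3. GAP-scr and GAP-2 overlapped and both GAP-2/3 libraries were lower, by 0.81 ± 0.12 against GAP-scr and 0.73 ± 0.12 against GAP-2 (adjusted p = 0.00376). Fibrillin 1, Fbn1, the core of the microfibril, stood at 106 and 112 FPKM in GAP-scr, 92.2 and 93.3 in GAP-2 and 63.7 and 77.2 in GAP-2/3. It was lowest in GAP-2/3 (-0.63 ± 0.12), 0.40 ± 0.12 below GAP-2 (adjusted p = 0.0493).

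The differences between treatments did not pass without GAP-2/3 A for Fbln2 (-0.61), without GAP-2 A, GAP-2/3 A or GAP-2/3 B for Fbln5 (-0.54, -0.69 and -0.55), and without any of the 4 gapmer libraries for Fbn1 (-0.53 to -0.26). The falls of Mfap4, Fbln5, Fbln2 and Fbn1 against GAP-scr with GAP-2/3 passed in each fit with 1 library left out, while that of Fbln2 over both treatments, 0.44 ± 0.11, did not pass without GAP-scr B (-0.32). Fbln1, at 0.921 to 1.95 FPKM, passed in no comparison.

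Fibronectin, Fn1, which cells assemble into fibrils through integrins, was the most abundant gene of the group that fell. It stood at 1296 and 1346 FPKM in GAP-scr, 989 and 862 in GAP-2 and 694 and 851 in GAP-2/3. All gapmer libraries lay below both controls, with changes of -0.52 ± 0.13 (adjusted p = 0.0214) and -0.78 ± 0.13 (adjusted p = 0.00101). The first did not pass without GAP-2 A (-0.62) or GAP-2 B (-0.42). Sparc stood at 1176 and 1250.5 FPKM in GAP-scr, 1151 and 1135 in GAP-2 and 950.0 and 1139 in GAP-2/3 and passed in no comparison (-0.15 ± 0.10 over both, adjusted p = 0.261), nor did periostin, Postn (-0.16 ± 0.10).

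**Figure D3:**
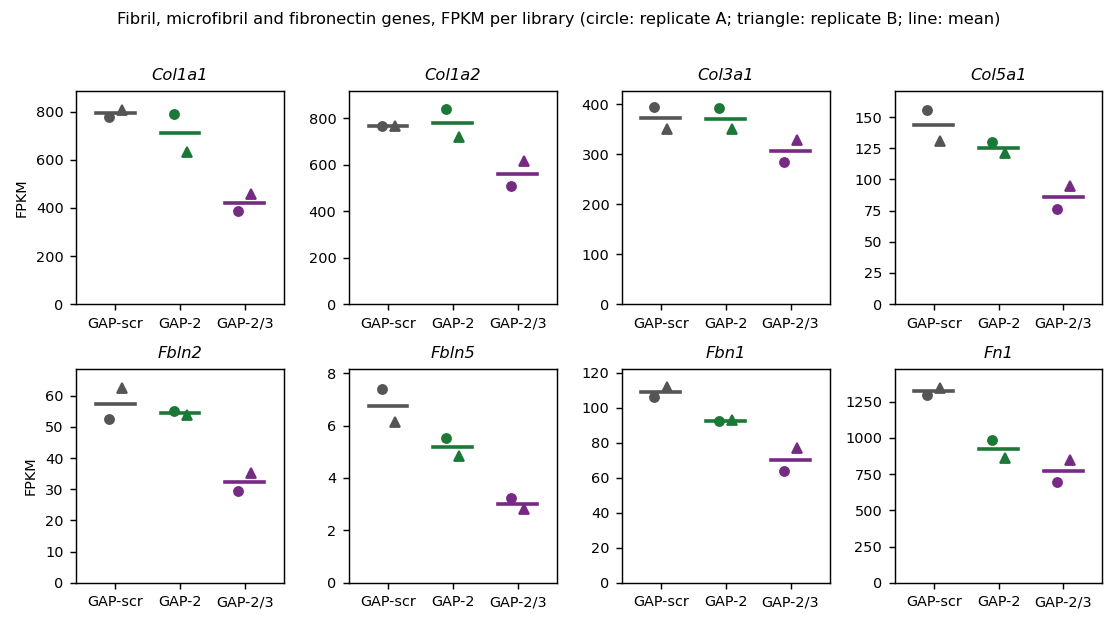
FPKM of 8 genes of fibrils, microfibrils and fibronectin in each library (circles replicate A, triangles replicate B, lines the mean of 2; each axis starts at 0). For Col1a1, Col1a2, Fbln2 and Fbln5 the GAP-2/3 libraries lie below the other 4, as at 385 and 456 FPKM against 632 to 808 for Col1a1, and Fn1 falls in both treatments.

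Thrombospondins are matricellular glycoproteins that act on cell contact and growth factor activity. Thbs2 and Thbs3 rose in both treatments, and Thbs1 fell with GAP-2. Thbs3 stood at 2.52 and 3.16 FPKM in GAP-scr, 5.52 and 5.35 in GAP-2 and 7.88 and 8.51 in GAP-2/3. The groups did not overlap and GAP-2/3 was highest: the changes were 0.75 ± 0.13 and 1.26 ± 0.13 (adjusted p = 4.07e-05). Thbs2 stood at 26.4 and 30.6 FPKM in GAP-scr, 40.1 and 37.6 in GAP-2 and 48.5 and 55.3 in GAP-2/3. The same order held for Thbs2, without overlap, with 0.44 ± 0.12 and 0.84 ± 0.12. Its rise with GAP-2 did not pass without GAP-scr A (0.33), either GAP-2 library (0.39 and 0.48) or either GAP-2/3 library (0.44), nor under either scaling. Thbs1 stood at 145 and 160.5 FPKM in GAP-scr, 109 and 105 in GAP-2 and 131 and 152 in GAP-2/3. Here GAP-2 was lowest (-0.51 ± 0.11) while GAP-2/3 overlapped the controls (-0.11 ± 0.11). The fall did not pass without either GAP-2 library (-0.53 and -0.49), and the difference between treatments passed narrowly (0.39 ± 0.11, adjusted p = 0.048), but under neither scaling and not when any gapmer library was left out (0.29 to 0.50). Over both treatments Thbs1 fell by 0.31 ± 0.10, and did not pass without GAP-scr B (-0.24), GAP-2 A (-0.32), GAP-2 B (-0.30) or GAP-2/3 A (-0.26). The difference of Thbs3 between treatments, 0.51 ± 0.13, did not pass when any gapmer library was left out (0.47 to 0.56).

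The remaining 8 collagens, of beaded filaments, networks, fibril surfaces and membranes, moved in both directions. Col23a1, a transmembrane collagen, was near the bottom of the table in the controls, at 0.345 and 0.563 FPKM in GAP-scr, 1.72 and 1.37 in GAP-2 and 2.01 and 2.52 in GAP-2/3. All gapmer libraries were higher, which the rule partly fixed: it reached the mean of 1 FPKM only through them, and its levels are given as a description. Col8a1, a network collagen, stood at 60.0 and 55.0 FPKM in GAP-scr, 72.5 and 75.6 in GAP-2 and 80.5 and 83.5 in GAP-2/3, with every gapmer library above both controls. It rose by 0.51 ± 0.10 with GAP-2/3. With GAP-2 its rise of 0.36 ± 0.10 did not pass without GAP-scr B (0.30), either GAP-2 library (0.39 and 0.33) or either GAP-2/3 library (0.36), nor under either scaling.

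Col14a1 and Col16a1, which attach to the surface of fibrils, were highest in GAP-2. Col14a1 stood at 1.47 and 1.13 FPKM in GAP-scr, 2.79 and 2.76 in GAP-2 and 1.59 and 1.78 in GAP-2/3, a rise of 0.72 ± 0.13 with GAP-2. Col16a1 stood at 12.8 and 12.4 FPKM in GAP-scr, 19.9 and 19.0 in GAP-2 and 10.7 and 12.9 in GAP-2/3, a rise of 0.59 ± 0.12. For both genes the GAP-2 libraries lay above the other 4, and GAP-2/3 was lower than GAP-2 by 0.49 ± 0.13 and 0.69 ± 0.12. The rise of Col16a1 did not pass without GAP-2 A (0.55) or GAP-2 B (0.62). The difference between treatments did not pass for Col16a1 without GAP-2 A (-0.65) or GAP-2/3 A (-0.56), and for Col14a1 when any gapmer library was left out (-0.54 to -0.44).

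Type VI collagen, a trimer of the products of Col6a1, Col6a2 and a further chain such as Col6a3, forms beaded filaments around muscle fibres. In GAP-2/3 Col6a2 rose and Col6a3 fell. Col6a2 stood at 46.0 and 38.8 FPKM in GAP-scr, 39.5 and 33.0 in GAP-2 and 63.8 and 83.1 in GAP-2/3. Both GAP-2/3 libraries lay above the rest, with a rise of 0.77 ± 0.15 against GAP-scr (adjusted p = 0.00234) and 0.99 ± 0.15 against GAP-2 (adjusted p = 0.00157). The rise against GAP-2 did not pass without GAP-2/3 B (0.80). Col6a1, its neighbour on chromosome 10 and the most abundant of the 3, stood at 133 and 115 FPKM in GAP-scr, 108 and 89.3 in GAP-2 and 125 and 157 in GAP-2/3. It passed in neither treatment against GAP-scr and was higher in GAP-2/3 than in GAP-2 by 0.51 ± 0.14, a difference not past the threshold under either scaling or when any gapmer library was left out (0.35 to 0.68). Col6a3 fell with GAP-2/3, from 70.8 and 66.6 FPKM to 43.9 and 56.1 (-0.46 ± 0.13), which did not pass without GAP-2/3 A (-0.29). Over both treatments it fell by 0.34 ± 0.11, and did not pass without GAP-scr A (-0.30), GAP-2 B (-0.31) or GAP-2/3 A (-0.25). With GAP-2 alone Col6a3 did not pass (-0.22 ± 0.13). The ratio of Col6a3 to Col6a2 was 1.54 and 1.72 in GAP-scr, 1.56 and 1.70 in GAP-2 and 0.689 and 0.675 in GAP-2/3; it was not tested. Col12a1 passed in no comparison.

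Lysyl oxidases cross-link collagen and elastin. Lox, the most abundant, stood at 192 and 229.8 FPKM in GAP-scr, 188 and 201 in GAP-2 and 225 and 222 in GAP-2/3 and passed in no comparison. Loxl1 stood at 44.4 and 66.7 FPKM in GAP-scr, 36.0 and 34.2 in GAP-2 and 33.0 and 31.9 in GAP-2/3. It was lower in all gapmer libraries (-0.62 ± 0.16 and -0.73 ± 0.16), but its controls were far apart. The fall with GAP-2 did not pass without GAP-scr B (-0.33), GAP-2 A (-0.66), GAP-2 B (-0.58) or either GAP-2/3 library (-0.62), nor that with GAP-2/3 without GAP-2/3 A (-0.75) or B (-0.71). Loxl4 stood at 3.47 and 2.82 FPKM in GAP-scr, 6.06 and 5.64 in GAP-2 and 2.55 and 2.73 in GAP-2/3. It was highest in GAP-2, 0.73 ± 0.13 above GAP-scr (adjusted p = 0.00406), and in GAP-2/3 it was 0.91 ± 0.13 below GAP-2 (adjusted p = 0.00112) and did not pass against GAP-scr (-0.18 ± 0.13). Loxl3 differed between the treatments alone (0.43 ± 0.12, adjusted p = 0.0464), but not when any gapmer library was left out (0.34 to 0.53) or under either scaling.

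Of the 8 Mmp genes 4 rose over both treatments (Mmp14, Mmp16, Mmp19 and Mmp28) and 1, Mmp15, fell, beside 24.5% and 9.57% of all genes. In this average Mmp16 did not pass without GAP-scr B (0.35) or under quantile normalization. Taken alone, GAP-2 gave no call for Mmp16 (0.19 ± 0.12), and GAP-2/3 none for Mmp28 (0.26 ± 0.12). Mmp19 had the highest change of the 67 genes over both treatments (1.05 ± 0.11) and stood at 1.58 and 1.83 FPKM in GAP-scr, 3.36 and 3.66 in GAP-2 and 6.41 and 5.57 in GAP-2/3. The groups did not overlap and GAP-2/3 was highest, with 1.37 ± 0.13 against GAP-scr (adjusted p = 2.12e-05) and 0.74 ± 0.13 for GAP-2. In RefSeq it overlaps Tmem198b, listed at a mean of 21.6 FPKM, by 2739 bases, and the sources used here do not say whether fragments were counted by strand. Its difference between treatments, 0.63 ± 0.13, did not pass without GAP-2 A (0.58) or either GAP-2/3 library (0.54 and 0.72).

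Mmp14, a membrane-bound collagenase that activates proMmp2, was the most abundant, at 58.9 and 65.0 FPKM in GAP-scr, 96.3 and 81.1 in GAP-2 and 74.6 and 89.3 in GAP-2/3. Every gapmer library lay above both controls, with 0.51 ± 0.13 (adjusted p = 0.0229) and 0.39 ± 0.13 (adjusted p = 0.0294). With GAP-2 it did not pass without GAP-2 A (0.39), with GAP-2/3 not without GAP-scr A (0.32), GAP-2/3 A (0.52) or GAP-2/3 B (0.27), and with neither when scaled to one median. Under quantile normalization the rise with GAP-2/3 did not pass either. Mmp2 itself lay between 63.3 and 72.2 FPKM and passed in no comparison. Mmp28, or epilysin, stood at 1.96 and 1.84 FPKM in GAP-scr, 4.27 and 4.05 in GAP-2 and 2.35 and 2.61 in GAP-2/3. It rose with GAP-2 (0.83 ± 0.12, adjusted p = 0.00133) and was lower in GAP-2/3 than in GAP-2 by 0.57 ± 0.12, which did not pass when any gapmer library was left out (-0.62 to -0.52). Mmp28 overlaps 1700020L24Rik, listed at a mean of 3.08 FPKM, by 465 bases. Mmp16, at 1.28 and 1.13 FPKM in GAP-scr, 1.52 and 1.50 in GAP-2 and 2.25 and 2.52 in GAP-2/3, rose with GAP-2/3 by 0.62 ± 0.12. GAP-2/3 was 0.43 ± 0.12 above GAP-2, which did not pass under either scaling or when any gapmer library was left out (0.37 to 0.48). Mmp15, a membrane-bound relative of Mmp14, stood at 11.3 and 14.4 FPKM in GAP-scr, 7.96 and 9.65 in GAP-2 and 7.02 and 8.39 in GAP-2/3, with all gapmer libraries below the controls (-0.50 ± 0.15 and -0.67 ± 0.15). With GAP-2 it did not pass without GAP-scr B, GAP-2 A, GAP-2 B or either GAP-2/3 library (-0.62 to -0.34), and with GAP-2/3 not without GAP-2/3 A (-0.55).

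Mmp11, stromelysin 3, had the largest difference between the treatments of all 67 genes. It stood at 42.0 and 45.9 FPKM in GAP-scr, 58.2 and 54.3 in GAP-2 and 24.9 and 28.5 in GAP-2/3. GAP-2 lay above and GAP-2/3 below the controls, without overlap. The treatments differed by -1.05 ± 0.11 (adjusted p = 0.000188). Against GAP-scr it fell by 0.70 ± 0.11 with GAP-2/3 (adjusted p = 0.000988), while its 0.35 ± 0.11 with GAP-2 did not pass (adjusted p = 0.06). Mmp11 and Loxl4 were the 2 of 28 genes whose difference between treatments passed under every alternative in which they were tested. Loxl4, at a mean of 3.88 FPKM, was not tested with a minimum mean of 5 FPKM.

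Timp3, a Timp that binds to the matrix, had the highest change of the 67 with GAP-2. It stood at 18.1 and 18.5 FPKM in GAP-scr, 44.0 and 55.4 in GAP-2 and 25.7 and 30.9 in GAP-2/3. The groups did not overlap, with GAP-2 highest: it rose by 1.38 ± 0.13 with GAP-2 (adjusted p = 8.21e-05) and 0.60 ± 0.13 with GAP-2/3 (adjusted p = 0.00579), and GAP-2/3 was below GAP-2 by 0.79 ± 0.13 (adjusted p = 0.00406). Without GAP-2/3 B the rise with GAP-2/3, 0.47, did not pass, nor the difference without GAP-2/3 A (-0.66). Timp1, an inducible secreted inhibitor and the most abundant of the 3, stood at 342 and 522 FPKM in GAP-scr, 300.2 and 408 in GAP-2 and 659.6 and 582 in GAP-2/3. Replicates were far apart in GAP-scr and GAP-2, which overlapped, and both GAP-2/3 libraries were higher. The rise with GAP-2/3, 0.55 ± 0.19 (adjusted p = 0.0375), did not pass without GAP-scr A (0.25), GAP-2/3 A (0.46) or GAP-2/3 B (0.64), or when scaled to one median. It was higher in GAP-2/3 than in GAP-2 by 0.82 ± 0.19, not past the threshold without GAP-2 A (0.60), GAP-2/3 A (0.73) or GAP-2/3 B (0.91), or when scaled to one median. Timp1 lies within the span of Syn1, listed at a mean of 9.79 FPKM. Timp2, at 144 to 182 FPKM, passed in no comparison.

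**Figure D4:**
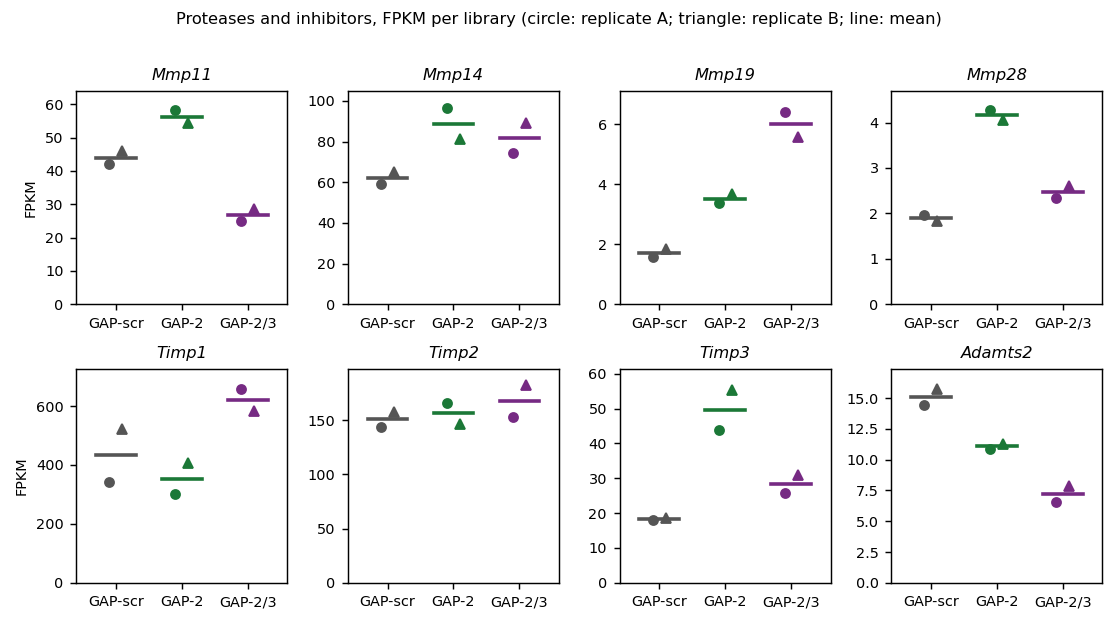
FPKM of 8 genes of matrix proteolysis in each library (circles replicate A, triangles replicate B, lines the mean of 2; each axis starts at 0). Mmp11 is highest in GAP-2 and lowest in GAP-2/3, Timp3 is highest in GAP-2 (44.0 and 55.4 FPKM against 18.1 and 18.5 in GAP-scr), Timp1 is highest in GAP-2/3, and Adamts2 falls from GAP-scr to GAP-2 to GAP-2/3.

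No Adamts protease rose against GAP-scr, and of the 10 genes 5 fell over both treatments, 4 with GAP-2 and 6 with GAP-2/3. Of all genes 9.57%, 4.18% and 11.3% fell in these comparisons, and 24.5%, 10.4% and 28.0% rose. Adamts2 and Adamts14 remove the N-terminal propeptide of fibrillar procollagens. Adamts2 stood at 14.5 and 15.8 FPKM in GAP-scr, 10.9 and 11.3 in GAP-2 and 6.60 and 7.87 in GAP-2/3. Adamts14 stood at 10.3 and 11.6 FPKM in GAP-scr, 7.65 and 7.32 in GAP-2 and 5.17 and 5.87 in GAP-2/3. For both, the groups did not overlap and GAP-2/3 was lowest, with -0.97 ± 0.12 (adjusted p = 0.000209) and -0.87 ± 0.12 (adjusted p = 0.000428). With GAP-2 they fell by 0.41 ± 0.12 and 0.49 ± 0.12. Those falls did not pass without GAP-scr B (-0.36 and -0.41), GAP-2 A (-0.39 and -0.52) or GAP-2 B (-0.44 and -0.46), nor for Adamts2 without either GAP-2/3 library (-0.41). GAP-2/3 was below GAP-2 by 0.56 ± 0.12 for Adamts2, not past the threshold when any gapmer library was left out (-0.67 to -0.45).

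Adamts1, Adamts4 and Adamts5 cleave aggrecan and versican. Adamts1 stood at 36.7 and 24.7 FPKM in GAP-scr, 25.0 and 21.8 in GAP-2 and 14.6 and 15.9 in GAP-2/3. One control lay beside the GAP-2 libraries, and both GAP-2/3 libraries were below all others (-0.94 ± 0.16). With GAP-2 alone Adamts1 did not pass (-0.35 ± 0.16). Adamts5, its neighbour on chromosome 16, stood at 13.9 and 14.1 FPKM in GAP-scr, 8.90 and 11.4 in GAP-2 and 7.94 and 7.95 in GAP-2/3. All gapmer libraries were below the controls (-0.44 ± 0.13 and -0.75 ± 0.13). Adamts7, which cuts cartilage oligomeric matrix protein, stood at 11.6 and 11.7 FPKM in GAP-scr, 8.75 and 7.22 in GAP-2 and 6.37 and 7.01 in GAP-2/3 and fell by 0.50 ± 0.13 and 0.72 ± 0.13. The falls with GAP-2 did not pass for Adamts5 without GAP-scr B (-0.43), GAP-2 A (-0.28), GAP-2 B (-0.60) or either GAP-2/3 library (-0.44), and for Adamts7 without GAP-2 B (-0.38) or either GAP-2/3 library (-0.50). Adamts4, the most abundant of the family, stood at 23.6 and 26.4 FPKM in GAP-scr, 25.6 and 24.3 in GAP-2 and 21.9 and 27.7 in GAP-2/3, with overlapping groups and no call.

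Adamts17 stood at 4.11 and 4.81 FPKM in GAP-scr, 5.50 and 4.13 in GAP-2 and 2.74 and 3.04 in GAP-2/3 and was lowest in GAP-2/3 (-0.49 ± 0.14 against GAP-scr and -0.57 ± 0.14 against GAP-2). The fall did not pass without GAP-scr B (-0.40), GAP-2/3 A (-0.43) or GAP-2/3 B (-0.54). Adamts16, with a GAP-2 mean below 1 FPKM, stood at 1.20 and 1.84 FPKM in GAP-scr, 0.868 and 1.03 in GAP-2 and 2.01 and 2.03 in GAP-2/3. It was higher in GAP-2/3 than in GAP-2 by 0.63 ± 0.14 (adjusted p = 0.0173), which depends in part on the filter. Against GAP-scr Adamts16 passed in neither treatment. Of these differences between treatments, those of Adamts1, at -0.58 ± 0.16, Adamts16 and Adamts17 did not pass without GAP-2 A (-0.49, 0.58 and -0.40), GAP-2/3 A (-0.52, 0.64 and -0.52) or GAP-2/3 B (-0.64, 0.63 and -0.62), nor that of Adamts1 without GAP-2 B (-0.68). Adamts6 and Adamts10 passed in no comparison.

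**Figure D5:**
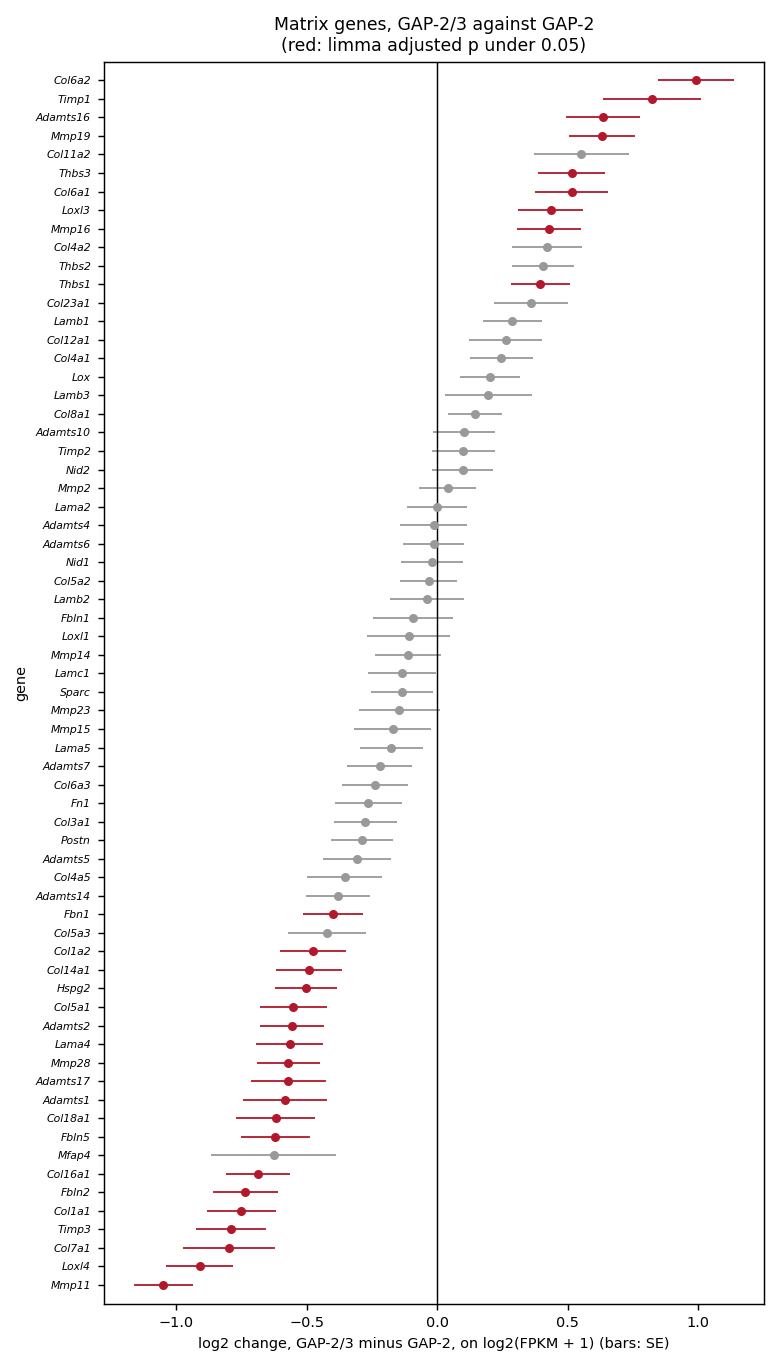
Difference between GAP-2/3 and GAP-2 in log2(FPKM + 1) for 66 of the 67 genes, with SE bars, red where the limma adjusted p was under 0.05 (28 genes). Mmp11, Loxl4, Col7a1, Timp3, Col1a1 and Fbln2 lie furthest below 0, and Col6a2, Timp1, Adamts16 and Mmp19 furthest above. Adamts16 had a GAP-2 mean below 1 FPKM.

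RefSeq promoter windows (GRCm38.p6) were found for 44 of the 67 genes. The 250 bases before the annotated start are printed 5′ to 3′ on the gene's strand for Hspg2, Timp3, Mmp11 and Loxl4. Hspg2 (chr4:137468553-137468802, plus strand) fell in both treatments, and Timp3 (chr10:86300162-86300411, plus strand) had the highest rise in GAP-2. For Mmp11 (chr10:75932503-75932752, minus strand) and Loxl4 (chr19:42612807-42613056, minus strand) the difference between treatments passed under every alternative in which it was tested. Capitals mark GGGCGG, the core of the GC box that Sp-family factors bind, on either strand.
Hspg2: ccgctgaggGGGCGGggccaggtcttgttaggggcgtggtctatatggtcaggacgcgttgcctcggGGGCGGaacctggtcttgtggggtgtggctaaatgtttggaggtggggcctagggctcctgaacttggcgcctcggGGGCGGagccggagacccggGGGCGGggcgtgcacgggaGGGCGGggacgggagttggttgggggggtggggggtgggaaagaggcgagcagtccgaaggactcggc
Timp3: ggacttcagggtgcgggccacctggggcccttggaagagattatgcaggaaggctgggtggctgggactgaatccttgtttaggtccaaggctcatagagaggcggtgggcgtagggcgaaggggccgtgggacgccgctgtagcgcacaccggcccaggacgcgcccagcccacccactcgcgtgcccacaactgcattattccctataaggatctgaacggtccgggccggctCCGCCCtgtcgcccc
Mmp11: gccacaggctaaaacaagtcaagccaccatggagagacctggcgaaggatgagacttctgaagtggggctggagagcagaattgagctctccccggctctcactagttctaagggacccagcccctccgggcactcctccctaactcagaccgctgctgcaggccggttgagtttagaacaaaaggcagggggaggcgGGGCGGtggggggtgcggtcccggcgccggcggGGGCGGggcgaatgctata
Loxl4: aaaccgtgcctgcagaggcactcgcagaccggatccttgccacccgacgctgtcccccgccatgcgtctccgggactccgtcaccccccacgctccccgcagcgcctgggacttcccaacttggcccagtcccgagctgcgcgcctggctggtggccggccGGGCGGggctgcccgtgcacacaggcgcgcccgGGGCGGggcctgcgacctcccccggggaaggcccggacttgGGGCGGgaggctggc
The window of Hspg2 held 5 copies, that of Loxl4 3, that of Mmp11 2 and that of Timp3 1. At least 1 copy was in 33 of 51 windows of the group (64.7%), beside 32.7% of all 32851 windows of this length. A gene can have more than 1 start. All windows were taken whether or not their gene is expressed here, so these shares are not matched for expression. CCAAT, on either strand, was in 33.3% of the windows of the group and 33.8% of all, and TGANTCA, the AP-1 element, in 1.96% and 6.75%. No printed window held CCAAT or TGANTCA. Each motif was searched on its own, so matches of different motifs may overlap, and a match is a description of the sequence, not of binding.

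Other genes of the matrix were taken from 5 fixed lists, whose median changes over both treatments were -0.06 for proteoglycans, -0.07 for collagen biosynthesis, -0.09 for receptors, 0.02 for other glycoproteins and 0.09 for other proteases and inhibitors, beside 0.10 for all genes. Over all genes tested 24.5% rose and 9.57% fell, and the risers among the receptors and among the other proteases and inhibitors were near that share. The calls on these lists were not checked with libraries left out. Of 19 tested proteoglycans 6 rose and 5 fell over both treatments. Among the risers were Prelp (1.34 ± 0.12), versican (Vcan, 1.21 ± 0.11) and decorin (Dcn, 1.09 ± 0.12), which bind collagen or hyaluronan. Osteomodulin, Omd, is counted with them but reached the mean of 1 FPKM only through GAP-2/3, so its levels are a description: it stood at 0.407 and 0.202 FPKM in GAP-scr, 1.08 and 0.905 in GAP-2 and 9.81 and 8.29 in GAP-2/3. Vcan stood at 47.5 and 35.8 FPKM in GAP-scr, 91.5 and 90.7 in GAP-2 and 104 and 101 in GAP-2/3, above both controls in every gapmer library.

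Of 21 genes of procollagen modification, secretion and processing 2 rose and 1 fell: Fkbp14 (0.58 ± 0.11), Ppib (0.30 ± 0.10) and Tram2 (-0.38 ± 0.12). With GAP-2/3 5 of the 21 fell, among them P4ha1 and P4ha2, the catalytic subunits of prolyl 4-hydroxylase, and 2 rose. Of all genes 11.3% fell and 28.0% rose with GAP-2/3. Of 21 matrix receptors 5 rose and 7 fell over both. Itga7, the integrin chain that pairs with Itgb1 as the laminin receptor of muscle, stood at 371 and 399 FPKM in GAP-scr, 248 and 245 in GAP-2 and 211 and 255 in GAP-2/3 and fell by 0.68 ± 0.10. Dag1, dystroglycan, and Bcam, both laminin receptors, also fell, the latter by 0.88 ± 0.13. The α4 integrin Itga4, a fibronectin receptor, rose by 0.84 ± 0.11. Itgb4, a laminin receptor chain, is also counted as rising and entered only through the gapmer groups, with group means of 0.419, 1.34 and 2.29 FPKM.

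Of 22 other matrix glycoproteins 3 rose and 6 fell over both. Tenascin C, Tnc, stood at 144 and 192 FPKM in GAP-scr, 91.3 and 102 in GAP-2 and 98.1 and 122 in GAP-2/3 and fell by 0.69 ± 0.13. The latent TGF-β binding proteins Ltbp3 and Ltbp4 fell by 0.60 ± 0.10 and 0.61 ± 0.11. Tinagl1, a basement membrane protein, is counted among the risers but reached the mean of 1 FPKM only through the gapmer groups, with a mean of 0.423 FPKM in the controls against 3.70 for GAP-2 and 2.61 for GAP-2/3. Of 22 other proteases and inhibitors 6 rose and 4 fell, with Serpine2, a protease inhibitor, at 0.78 ± 0.09, Ctsl, cathepsin L, at 0.50 ± 0.09, Adam10 at 0.51 ± 0.10 and Plat, tissue plasminogen activator, at 0.49 ± 0.10.

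The second assay of the series, ChIRP-seq, captured Charme on chromatin with complementary probes and sequenced the co-purified DNA, in 1 even-probe, 1 odd-probe, 1 input and 1 LacZ-probe library. Of the 798 peaks in the authors' merged list, 1 lay within a gene of this group, Col14a1, at positions 55383147 to 55383350 of chromosome 15. The authors' score of this peak, on a scale not given in the file, was 2913, rank 384 of the 798. Thus 1 of 67 genes had a peak, beside 1.74% of the 10947 tested genes that could be placed. The deposited notes name the build mm9, but the last peak on chromosome X, at 170731996 to 170732078, lies beyond the end of that chromosome in mm9, so the peaks were read as GRCm38, an inference. With 1 peak, no comparison of bound and unbound genes was made.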

How the data were processed

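The authors deposited FPKM values in 1 table of 11228 genes with a column for each of 6 RNA-seq libraries. Polyadenylated RNA was prepared with a stranded TruSeq kit, per the labels' protocols. The submitters' processing notes list the build mm9 and, without role or version, MACS and bedtools, the trimmers cutadapt and Trimmomatic, TopHat2 and Bowtie2, Cuffdiff and Cufflinks, FastQC and CASAVA. FPKM does not retain depth, so counting error is unknown and no count model was used. Peaks were deposited by the authors with a score each and no header.

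Values were taken as log2(FPKM + 1) for the 10993 genes averaging 1 FPKM or more. One limma model (limma 3.58.1, R 4.3.3) covered the 3 groups, without covariates and with a variance trend on intensity; p-values (two-sided) were adjusted by Benjamini-Hochberg over all 10993, with a threshold of 0.05. The fit was tested on simulated data. The genes, lists and rules were chosen with earlier results of these data known. Values in every library are given for the most abundant gene of each role and for genes past the threshold with a log2 change of at least 0.5 in any comparison; from each list of other matrix genes, up to 4 with the smallest p. Alternatives were other pseudocounts (0.1 and 5), filters, scalings, variance models, a replicate block, libraries left out, fits to the compared groups alone and a threshold of 0.1. One gene of the group enters the counts and is not reported here. Gene symbols were placed by RefSeq (GRCm38.p6).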

Additional observations from a re-analysis of the deposited data

How the results depend on the processing

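Counts of the 67 genes called stayed within 1.5 times the main count under every alternative except those given here. For GAP-2/3 against GAP-2, 28 became 17 with a minimum mean of 5 FPKM, at which fewer genes are tested, and 3 to 34 with 1 library left out. For GAP-2 against GAP-scr, 25 became 13 to 28 with 1 library left out, and for GAP-2/3 against GAP-scr 39 became 25 to 40. Both treatments together gave 31 to 38. With the minimum mean of 5 FPKM 51 of the 67 genes were tested, and 9.2% of all genes were called for GAP-2/3 against GAP-2. Of the calls still tested there, only that of Fbn1 in this comparison did not pass. No called change reversed its sign under any alternative.

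Scaling to one median moved the median change of all genes with GAP-2/3 from 0.13 to 0.03, and quantile normalization moved it to 0.01. The split of calls shifted: GAP-2 gave 11 higher and 14 lower as deposited, 8 and 16 scaled to one median and 9 and 17 under quantile normalization, and GAP-2/3 against GAP-2 gave 9 and 19, 4 and 19, and 5 and 20. Of 127 called changes over the 4 comparisons, 10 did not pass when scaled to one median and 9 under quantile normalization. Without GAP-scr A and GAP-2 A, the libraries highest in Rn45s (an alternative chosen after seeing the data), some of the 127 called changes did not pass. That fit leaves a single library in GAP-scr and in GAP-2, so its counts are not given.

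The replicate letters pair no samples in the labels, and deviations of same-lettered libraries correlated across genes at 0.36, -0.13 and -0.18 between groups. With the letter as a replicate block 36, 28, 39 and 33 genes were called, in the same order, and all 127 calls passed. The count of 1 gene with a peak was the same with spans extended by 10 kb and with peaks at or above the median score. Depth is unknown, so what it limits for weakly expressed genes could not be measured.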
